A study of Mus musculus with 4 samples.

Results

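Aquaporins are the channel proteins through which water crosses cell membranes, and some of them also pass glycerol or other small solutes. The genes described here were taken by symbol from a table of 18383 mouse genes, and all 9 aquaporin symbols looked for (Aqp1 to Aqp8 and Aqp11) had a row. The RNA came from primary renal tubular epithelial cells, taken from the cortex of 8-week-old C57BL/6 mice, with 2 libraries per genotype. KM mice carried floxed MYC alleles (MYCfl/fl) and the KspCre transgene (KspCre/+). KMS mice carried floxed SETD2 alleles (SETD2fl/fl) besides the same MYC alleles and the same transgene, so both groups share MYC and Cre. SETD2 trimethylates histone H3 at lysine 36, and the series title sets MYC cells with SETD2 beside MYC cells without it. In KspCre mice, Cre is made under the promoter of Ksp-cadherin, mainly in the distal nephron and collecting duct and less in the proximal tubule. The series text speaks of triplicates, of mice of 6 to 8 weeks and of a genotype without MYC. Those details differ from the sample labels, which were followed here.

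In the kidney each segment has its own aquaporins. The proximal tubule and thin descending limb reabsorb water constitutively through AQP1. In principal cells of the collecting duct, vasopressin acts through its V2 receptor, cyclic AMP and protein kinase A to bring AQP2 to the apical membrane and to raise Aqp2 transcription, while AQP3 and AQP4 let the water leave across the basolateral membrane. AQP6 sits in vesicles of acid-secreting intercalated cells, AQP7 carries water and glycerol in the last part of the proximal tubule, and AQP11 lies in the endoplasmic reticulum of proximal tubule cells.

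Among the 9 genes, Aqp1, Aqp2, Aqp3 and Aqp11 were higher in both KMS libraries than in both KM libraries, with ratios of mean counts scaled to 1e+06 per library (CPM) of 1.63 to 2.49. Aqp6 was lower in both KMS libraries, at 0.425 of its KM mean. Aqp8 and Aqp5 were also lower in both KMS libraries, but most of their KM reads came from 1 library. Aqp4 and Aqp7 overlapped between the genotypes. None of the 8 aquaporins that could be tested passed in edgeR's quasi-likelihood test (adjusted p under 0.05, Benjamini-Hochberg over 15002 genes), beside 0.0333% of all tested genes (0.00667% higher and 0.0267% lower in KMS). Of the 8, 6 had an unadjusted p under 0.05, as did 26.3% of all genes. Groups that do not overlap were found for 6 of the 8 and for 60.3% of all tested genes (29% with KMS above and 31.3% with KMS below KM), so separation alone is common in these libraries.

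The outcome of the test depended on the model. Xist, the X-inactivation RNA of females, had 700 CPM in KM replicate 1 and 451 CPM in KMS replicate 1, against 0.612 and 0.121 CPM in the replicates 2, where the Y-linked genes were expressed. The replicates 1 and the replicates 2 therefore form an Xist-rich and a Y-linked pair, and a term that separates these pairs is called a term for sex below. With that term 4 of the 8 passed (edgeR), Aqp1 and Aqp2 as higher and Aqp6 and Aqp8 as lower, beside 5.43% of all tested genes (1.93% higher and 3.5% lower). The term leaves fewer residual degrees of freedom than genotype alone. Outside the listed sex-linked genes, the deviations of the replicates 1 of both genotypes correlated at only 0.0657. The DESeq2 Wald test passed the same 4 without the term, beside 11.8% of all genes, and limma-voom passed 0. These shares of all tested genes also belong beside the counts given for the gene lists below. Without KM replicate 1, edgeR passed 5 (those 4 and Aqp11) beside 9.94% of all genes, without KM replicate 2 it passed 0 beside 1.12%, and without either KMS library 0 beside 0%.

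**Figure D1:**
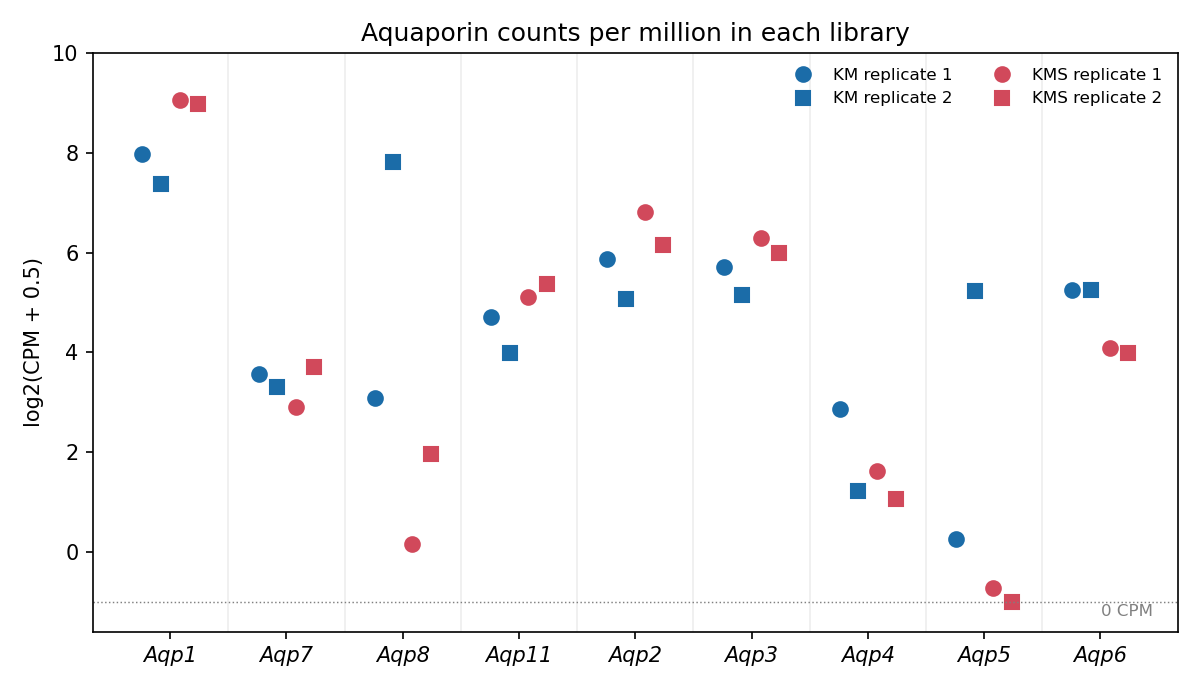
Expression of each aquaporin as log2(CPM + 0.5) on the vertical axis, with 1 point per library, KM in blue and KMS in red, circles for replicate 1 and squares for replicate 2. Aqp1 was the highest in 3 of 4 libraries, the KM replicate 2 squares of Aqp8 and Aqp5 stand far above the other 3 libraries, and the dotted line marks 0 CPM.

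Aqp2, Aqp5 and Aqp6 lie side by side on chromosome 15 on the plus strand (GRCm38), with 6234 bases between Aqp2 and Aqp5 and 6570 between Aqp5 and Aqp6. Aqp2 spans 99579055 to 99584547, Aqp5 99590782 to 99594829 and Aqp6 99601400 to 99605477. These neighbours had different patterns, described below, and so their promoter windows are shown, together with that of Aqp8, the other member whose window holds the E-box that MYC and MAX bind. Each window runs from 250 bases before to 50 bases into the RefSeq transcript (GRCm38.p6, plus strand, 5′ to 3′), at chr15:99578806-99579105, chr15:99590778-99591077, chr15:99600950-99601249 and chr7:123462044-123462343. Capitals mark matches, on either strand, to 3 motifs spelled out after the sequences.
Aqp2 promoter: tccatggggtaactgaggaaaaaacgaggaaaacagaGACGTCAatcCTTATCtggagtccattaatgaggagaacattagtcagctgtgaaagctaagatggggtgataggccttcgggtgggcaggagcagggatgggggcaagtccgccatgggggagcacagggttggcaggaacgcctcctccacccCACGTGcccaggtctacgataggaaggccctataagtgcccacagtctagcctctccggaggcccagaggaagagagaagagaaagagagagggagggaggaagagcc
Aqp5 promoter: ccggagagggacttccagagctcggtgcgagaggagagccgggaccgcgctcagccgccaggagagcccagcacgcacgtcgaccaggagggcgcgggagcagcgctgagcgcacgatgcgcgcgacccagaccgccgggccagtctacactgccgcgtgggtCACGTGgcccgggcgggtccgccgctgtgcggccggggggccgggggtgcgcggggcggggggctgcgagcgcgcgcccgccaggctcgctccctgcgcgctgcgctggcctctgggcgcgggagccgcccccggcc
Aqp6 promoter: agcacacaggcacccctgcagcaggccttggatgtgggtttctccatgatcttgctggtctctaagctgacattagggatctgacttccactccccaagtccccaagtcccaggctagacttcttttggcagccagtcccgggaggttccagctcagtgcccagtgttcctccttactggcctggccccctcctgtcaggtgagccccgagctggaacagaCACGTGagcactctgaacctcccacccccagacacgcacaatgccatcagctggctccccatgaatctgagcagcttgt
Aqp8 promoter: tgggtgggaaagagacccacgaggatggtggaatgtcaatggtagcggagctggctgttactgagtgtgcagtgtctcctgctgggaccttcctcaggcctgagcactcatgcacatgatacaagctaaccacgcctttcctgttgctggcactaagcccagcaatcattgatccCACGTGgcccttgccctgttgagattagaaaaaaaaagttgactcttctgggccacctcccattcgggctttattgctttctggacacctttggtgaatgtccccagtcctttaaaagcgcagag

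CACGTG, the E-box, was found in 4 of 9 aquaporin windows (Aqp7 has 2, and Aqp4 was left out) and in 7.15% of 32851 windows of all genes. Its first base lies 58 bases before the RefSeq start in Aqp2, 87 in Aqp5, 29 in Aqp6 and 75 in Aqp8. For Aqp5 and Aqp6 the RefSeq start differs from the start of the gene span given above, which is from GENCODE. The Aqp5 window lies almost wholly inside that span, and the Aqp6 window ends before its span begins. The genes with this match did not share a direction, since Aqp2 was higher in KMS and the other members of the set were lower. GACGTCA, the cyclic AMP response element (CRE) without its first base, occurred only in the Aqp2 window, 213 bases before the start, and in 3.21% of all windows. The whole CRE, TGACGTCA, occurred in 0 of 9 aquaporin windows and in 1.79% of all. GATAAG, a motif of GATA factors, occurred in Aqp2 on the minus strand and in the first Aqp7 window, and in 7.44% of all. TATAAA, the TATA box, occurred only in the Aqp3 window and in 13.6% of all. The motifs were chosen after the sequences and values had been seen, and a match describes letters and not a bound site.

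In the proximal tubule, Aqp1 (chromosome 6, 55336432 to 55348555) encodes the constitutive water channel. It had 250.3 and 166 CPM in KM replicates 1 and 2 and 535 and 502 CPM in KMS. Both KMS libraries lay far above both KM libraries. The mean was 208 ± 59.5 CPM for KM and 519 ± 23.2 for KMS (SD over n = 2), and edgeR put the difference at 1.32 ± 0.28 on the log2 scale (SE, adjusted p = 0.084). The fit with a term for sex gave 1.35 ± 0.29, which passed (edgeR adjusted p = 0.039). The log2 ratio was 1.09 in the Xist-rich pair and 1.59 in the Y-linked pair. In the authors' deposited table Aqp1 has a log2 fold change of 1.35 and an adjusted p of 3.2e-04. Red cells and capillary endothelium also contain AQP1. The summed CPM of 5 red cell genes was 1297 and 90.3 in KM against 308 and 306 in KMS, and that of 9 endothelial genes 1159.5 and 936 in KM against 1195 and 687 in KMS. Both sums overlapped between the genotypes. The red cell sum was lower in KMS in the Xist-rich pair and higher in KMS in the Y-linked pair, while Aqp1 was higher in KMS in both pairs. The part of red cells and endothelium in the Aqp1 values was not tested.

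All 18 markers of the proximal tubule had a positive log2 fold change with genotype as the only term, as did 49.3% of all tested genes. Their median was 1.17 beside -0.01 over all tested genes. Of the 18 markers, 14 were higher in both KMS libraries, as were 29% of all tested genes. The other 4 (Kap, Slc7a13, Slc22a30 and Cyp4b1) overlapped between the genotypes. In the Xist-rich pair the log2 ratio was -4.70 for Kap, -0.84 for Slc7a13 and -0.42 for Slc22a30, and with the term for sex the log2 fold change of Kap was -0.25. None passed (edgeR; 10 at an unadjusted p under 0.05, 13 with DESeq2, 0 with limma-voom, 3 with the term for sex). Their summed CPM, leaving out the androgen-responsive gene Kap, was 13099 and 9863 in KM against 25421 and 26618 in KMS. The most abundant markers were Kap and Slc34a1, the latter at 2815 and 2236 CPM in KM against 6579 and 5411 in KMS. Kap itself had 56.7 CPM in KMS replicate 1 and 14945 CPM in KMS replicate 2. In bulk RNA, a larger share of cells of a type and more RNA per cell of that type cannot be told apart. The listed gene closest to Aqp1 over the 4 libraries was Miox, the inositol oxygenase of the proximal tubule, with a root mean square difference of 0.06 between their centred log2 values, followed by the phosphate transporter gene Slc34a1 at 0.12 and the glycerol phosphate dehydrogenase gene Gpd1 at 0.17, out of 146 candidates.

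Aqp11 (chromosome 7, 97724006 to 97738289, minus strand) encodes the aquaporin of the endoplasmic reticulum, and mice without it develop vacuolated proximal tubules and polycystic kidneys. It had 25.6 and 15.3 CPM in KM against 34.2 and 40.9 in KMS. The groups did not overlap, although KM replicate 1 lay closer to KMS than KM replicate 2 did. Its log2 difference of 0.88 ± 0.29 (SE) missed the threshold (edgeR adjusted p = 0.131, or 0.090 with sex as a term). It passed without KM replicate 1 (log2 fold change 1.29, edgeR adjusted p = 0.031) and was 0.57 without KM replicate 2. The closest listed genes were Hnf4a, a transcription factor of the proximal tubule (0.06), the endocytic receptor gene Lrp2 (0.15) and the glycerol kinase gene, listed as Gyk (0.17).

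Aqp7 (chromosome 4, 41033074 to 41048139, minus strand) encodes the glycerol-permeable channel of the last proximal segment. It had 11.4 and 9.43 CPM in KM against 7.03 and 12.5 in KMS. The KMS libraries enclosed the KM libraries, with a log2 difference of -0.10 ± 0.35 (SE, edgeR adjusted p = 0.880). Aqp7 thus overlapped between the genotypes, which does not show that it was equal, while 14 of the 18 proximal tubule markers were higher in both KMS libraries. The markers Kap, Slc7a13, Slc22a30 and Cyp4b1 overlapped as well. In the Xist-rich and the Y-linked pair the log2 ratio was -0.84 and 4.69 for Slc7a13, -0.42 and 2.81 for Slc22a30, and -0.66 and 0.39 for Aqp7. Adipocytes also express Aqp7, and none of 5 adipocyte markers had a row in the table. Genes close to it among those listed were the taurine transporter gene Slc6a6 (0.21) and the recycling vesicle gene Rab11a (0.25).

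AQP7 delivers glycerol to enzymes that were also listed. Of 6 genes of glycerol handling, 5 had positive log2 fold changes, with a median of 0.46, and 0 passed (edgeR; 2 at an unadjusted p under 0.05, 1 with DESeq2, 0 with limma-voom). Gpd1, which links glycerol phosphate to glycolysis, had 209.5 and 181 CPM in KM against 461 and 408 in KMS, and passed with the term for sex (edgeR adjusted p = 0.047). Gyk, which phosphorylates glycerol, had 424 and 213 CPM in KM against 406 and 569 in KMS. Lipe, the hormone-sensitive lipase gene, had 16.2 and 14.5 CPM in KM against 23.8 and 21.1 in KMS.

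Aqp8 (chromosome 7, 123462291 to 123468004) encodes a channel for water, ammonia and hydrogen peroxide, which in the rat was located inside proximal tubule cells. It had 149 and 3680 counts in KM against 6 and 28 counts in KMS, or 8.04 and 225 CPM in KM against 0.621 and 3.40 in KMS. KM replicate 2 was 28.0 times KM replicate 1, and both exceeded both KMS libraries. A gap of over 8-fold between the KM replicates was found for 72 of 15002 tested genes (0.48%). The log2 difference of -5.90 ± 1.67 (SE) missed the threshold (edgeR adjusted p = 0.107). With the term for sex it passed (-5.48 ± 0.48, edgeR adjusted p = 0.0025). The value rested largely on KM replicate 2. Without it the log2 fold change was -2.01 (edgeR adjusted p = 0.225), and the ratio of KM replicate 1 to the KMS counts was 4.23 (95% interval 2.90 to 6.34, exact, counting error only).

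Genes of injured tubules were high in the same library as Aqp8. All 8 listed injury genes were lower in both KMS libraries, as were 31.3% of all tested genes. Their summed CPM was 3677 and 9270.2 in KM against 2789 and 1006 in KMS. None of them passed in the fit with genotype alone (edgeR; 8 at an unadjusted p under 0.05, 6 with DESeq2, 0 with limma-voom), and 6 passed with the term for sex. Over all tested genes, 26.3% had an unadjusted p under 0.05 in edgeR and 11.8% passed in DESeq2. With the term for sex 3.5% passed as lower. Havcr1, Krt19, Krt20 and Sox9, like Aqp8 itself, did not reach the minimum count in both KMS libraries and entered the test through KM. Their direction was thus largely set by the filter, and the shares of all tested genes are not a like comparison for them. The closest listed genes to Aqp8 all came from this list, though at larger distances than for the other members. They were Havcr1, which encodes the injury marker KIM-1 (0.67), the keratin gene Krt19 (0.79) and the lipocalin gene Lcn2 (0.95). The most abundant injury gene, the osteopontin gene Spp1, had 3545 and 8494 CPM in KM against 2762 and 987 in KMS. Lcn2 had 36.3 and 416 CPM in KM against 6.21 and 4.01 in KMS. Havcr1 had 9.02 and 109 CPM in KM against 0 and 0.729 in KMS. The part of injury in the Aqp8 difference was not tested.

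In principal cells, Aqp2 encodes the vasopressin-regulated apical channel. It had 58.2 and 32.9 CPM in KM against 112 and 70.9 in KMS. Both KMS libraries exceeded both KM libraries, and in each genotype replicate 1 was the higher. The mean was 45.5 ± 17.9 CPM for KM and 91.6 ± 29.2 for KMS (SD over n = 2), a log2 fold change of 1.01 ± 0.34 (SE) that did not pass (edgeR adjusted p = 0.141). With the term for sex the standard error fell to 0.20 and the gene passed (log2 fold change 1.03, edgeR adjusted p = 0.032). The log2 ratios in the Xist-rich and the Y-linked pair were 0.94 and 1.10. Without KM replicate 1 the log2 fold change was 1.48 (edgeR adjusted p = 0.034), and without KM replicate 2 or KMS replicate 1 it was 0.66. The closest listed genes were Gatm, a creatine synthesis gene of the proximal tubule (0.09), Scnn1g, the gamma subunit of the epithelial sodium channel (0.10), and the podocyte gene Nphs1 (0.19).

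Aqp3 (chromosome 4, 41092722 to 41098183, minus strand) encodes the basolateral exit for water and glycerol. It had 52.0 and 35.0 CPM in KM against 77.9 and 63.5 in KMS. The groups did not overlap and KM replicate 2 was the lowest library, as for Aqp1, Aqp2 and Aqp11. Its log2 difference of 0.70 ± 0.24 (SE) missed the threshold without the term for sex (edgeR adjusted p = 0.143) or with it (0.077). The closest listed genes were the proton pump gene Atp6v0a4 (0.06) and the endocytic receptor genes Cubn (0.07) and Lrp2 (0.09).

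Aqp4, the other basolateral channel of principal cells and the main aquaporin of brain astrocytes, was low. It had 6.75 and 1.84 CPM in KM against 2.59 and 1.58 in KMS, from 125, 30, 25 and 13 counts. KM replicate 2 fell between the KMS libraries, so that only KM replicate 1 stood apart. The log2 fold change of -1.04 ± 0.68 (SE, edgeR adjusted p = 0.372) turned to 0.19 without KM replicate 1. The closest listed gene was Slc4a1 (0.21), the anion exchanger gene of red cells and acid-secreting intercalated cells, with 81.9 and 18.1 CPM in KM against 27.1 and 21.9 in KMS. The next were the endothelial gene Plvap (0.35) and the intercalated cell gene Slc4a9 (0.36). KM replicate 1 was also the library with the highest red cell sum, given with Aqp1, and its part in these values was not tested.

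Other principal cell genes did not all follow Aqp2. Of 11 markers, 10 had positive log2 fold changes with a median of 0.36, and 0 passed (edgeR; 2 at an unadjusted p under 0.05, 2 with DESeq2, 0 with limma-voom). Their summed CPM was 518 and 270.5 in KM against 565 and 351 in KMS, so the groups overlapped. Scnn1g had 18.6 and 12.1 CPM in KM against 43.3 and 24.8 in KMS and passed with the term for sex (edgeR adjusted p = 0.032). Gata3, also on this list, passed with that term in the other direction (edgeR adjusted p = 0.029). It had 33.0 and 32.1 CPM in KM against 15.9 and 9.23 in KMS. The 2 genes at an unadjusted p under 0.05, and the 2 of DESeq2, were likewise 1 higher and 1 lower in KMS. The V2 receptor gene Avpr2, the entry point of vasopressin, had 6.96 and 2.57 CPM in KM against 14.8 and 7.05 in KMS. The lowest KMS value of Avpr2 lay just above the highest KM value, and the log2 difference of 1.19 ± 0.57 (SE) missed the threshold (edgeR adjusted p = 0.243). The most abundant markers by CPM were Npnt, a matrix protein gene, at 239 and 110.2 CPM in KM against 222 and 166 in KMS, and Scnn1a, at 90.5 and 47.6 CPM in KM against 118 and 60.1 in KMS. Both overlapped between the genotypes.

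In the list for vasopressin signalling and control of Aqp2, 9 of 19 tested genes were lower in both KMS libraries and 1, Avpr2, was higher in both, beside 31.3% and 29% of all tested genes. Of the 19, 7 were positive and 12 negative, with a median of -0.10, and 0 passed (edgeR; 6 at an unadjusted p under 0.05, 5 with DESeq2, both sets all lower in KMS, and 0 with limma-voom). With the term for sex 2 passed as lower, Gata3 and Elf3. Gata3, a transcription factor of collecting duct cells, had 33.0 and 32.1 CPM in KM against 15.9 and 9.23 in KMS. It was lower in both KMS libraries while Aqp2 was higher (log2 difference -1.37 ± 0.29 SE; in edgeR the adjusted p was 0.085 for genotype alone, and 0.029 once sex was a term). Prkar2b, a regulatory subunit of protein kinase A, had 4.37 and 5.45 CPM in KM against 1.55 and 1.09 in KMS. Elf3, an epithelial ETS factor gene, had 20.8 and 70.2 CPM in KM against 10.9 and 7.77 in KMS. With the term for sex its adjusted p rounded to 0.050 (edgeR), right at the threshold, and its KM libraries lay far apart. The regulatory subunit gene Prkar1a had the highest CPM of the list, with 262 and 231 CPM in KM against 261 and 209 in KMS. The catalytic subunit gene Prkaca had 52.2 and 41.1 CPM in KM against 56.3 and 50.5 in KMS. The groups overlapped for Prkar1a and Prkaca, and Prkaca was named after its values were seen.

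Of 16 genes of the vesicle traffic that carries AQP2, 8 were positive and 8 negative, with a median of -0.03, and 0 passed (edgeR; 2 at an unadjusted p under 0.05, 1 with DESeq2, 0 with limma-voom or the term for sex). Nedd4l, a ubiquitin ligase gene, had 91.1 and 89.0 CPM in KM against 61.8 and 54.4 in KMS. Stx3, a SNARE gene of apical membranes, had 52.4 and 54.2 CPM in KM against 72.5 and 80.9 in KMS. Lrba, an anchoring protein gene needed for AQP2 phosphorylation in mice, had 47.1 and 35.9 CPM in KM against 64.2 and 53.6 in KMS. In each of these genes, named for their small p, the groups did not overlap. Of the 16 genes, 7 were higher and 6 lower in both KMS libraries, beside 29% and 31.3% of all tested genes.

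Water reabsorption in the collecting duct also needs urea and osmolytes in the medulla. Of 6 tested genes of this list, 4 were negative with a median of -1.02, and 0 passed (edgeR; 4 at an unadjusted p under 0.05, 2 with DESeq2, 0 with limma-voom). Slc14a2, the urea transporter gene of the inner medulla and thin limb, had 7.99 and 5.63 CPM in KM against 0.517 and 0.486 in KMS. It passed with the term for sex (edgeR adjusted p = 0.012). Slc14a1, the urea transporter gene of red cells and descending vasa recta, had 3.51 and 4.22 CPM in KM against 1.45 and 0.243 in KMS. Slc14a1 and Slc14a2 did not reach the minimum count in both KMS libraries and entered the test through KM, so their direction was largely set by the filter. Slc5a3, the inositol transporter gene, had 103 and 225 CPM in KM against 73.9 and 56.5 in KMS. The cells came from cortex by their labels. Thin limb markers had summed CPM of 126 and 114 in KM against 118 and 81.8 in KMS, and of 7 tested thin limb genes Bst1 alone passed with the term for sex (8.15 and 10.6 CPM in KM, 1.45 and 2.07 CPM in KMS, edgeR adjusted p = 0.021). With genotype alone 0 passed (edgeR; 3 at an unadjusted p under 0.05, 1 with DESeq2, 0 with limma-voom). Cryab, a small heat shock protein gene and the most abundant thin limb marker, had 63.0 and 50.8 CPM in KM against 39.6 and 34.1 in KMS.

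In intercalated cells, Aqp6 encodes a vesicle channel that in the rat conducts anions at low pH. It had 692 and 614 counts in KM against 160 and 126 counts in KMS, or 37.4 and 37.6 CPM in KM against 16.5 and 15.3 in KMS. The replicates of each genotype were close to each other and the genotypes were far apart. The mean was 37.5 ± 0.168 CPM for KM and 15.9 ± 0.88 for KMS (SD over n = 2), a log2 fold change of -1.23 ± 0.18 (SE) that did not pass (edgeR adjusted p = 0.068) but had the lowest p of the 8 tested aquaporins. With the term for sex the gene passed (log2 fold change -1.23, edgeR adjusted p = 0.025). Across all 10 other settings the log2 fold change stayed between -1.36 and -1.18. The adjusted p ranged from 2.3e-04 to 0.319 over these settings. In the authors' deposited table Aqp6 has a log2 fold change of -1.21 and an adjusted p of 0.032, and Aqp1 and Aqp6 are the members under 0.05 there, beside 2.22% of 18383 genes.

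Several intercalated cell genes were lower with Aqp6. Of 14 markers, 10 were negative with a median of -0.60, and 0 passed (edgeR; 5 at an unadjusted p under 0.05, 4 with DESeq2, 0 with limma-voom), while 4 passed as lower with the term for sex. Kit, a receptor tyrosine kinase gene, had 52.7 and 40.7 CPM in KM against 13.0 and 10.3 in KMS. Dmrt2, a transcription factor gene, had 16.2 and 19.5 CPM in KM against 3.31 and 2.43 in KMS. Atp6v1g3, a proton pump subunit gene, had 98.5 and 84.1 CPM in KM against 41.2 and 30.0 in KMS and was the gene closest to Aqp6 (0.16), before the prostaglandin receptor gene Ptger4 (0.21) and Prkar2b (0.23). The list did not move as a whole, since Atp6v0a4, another subunit of the same pump, had 294 and 208 CPM in KM against 433 and 333 in KMS. The most abundant other marker, the bicarbonate transporter gene Slc4a9, had 165 and 104 CPM in KM against 115 and 67.8 in KMS. The summed CPM of the list was 1297 and 877 in KM against 1129 and 746 in KMS, so the groups overlapped.

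**Figure D2:**
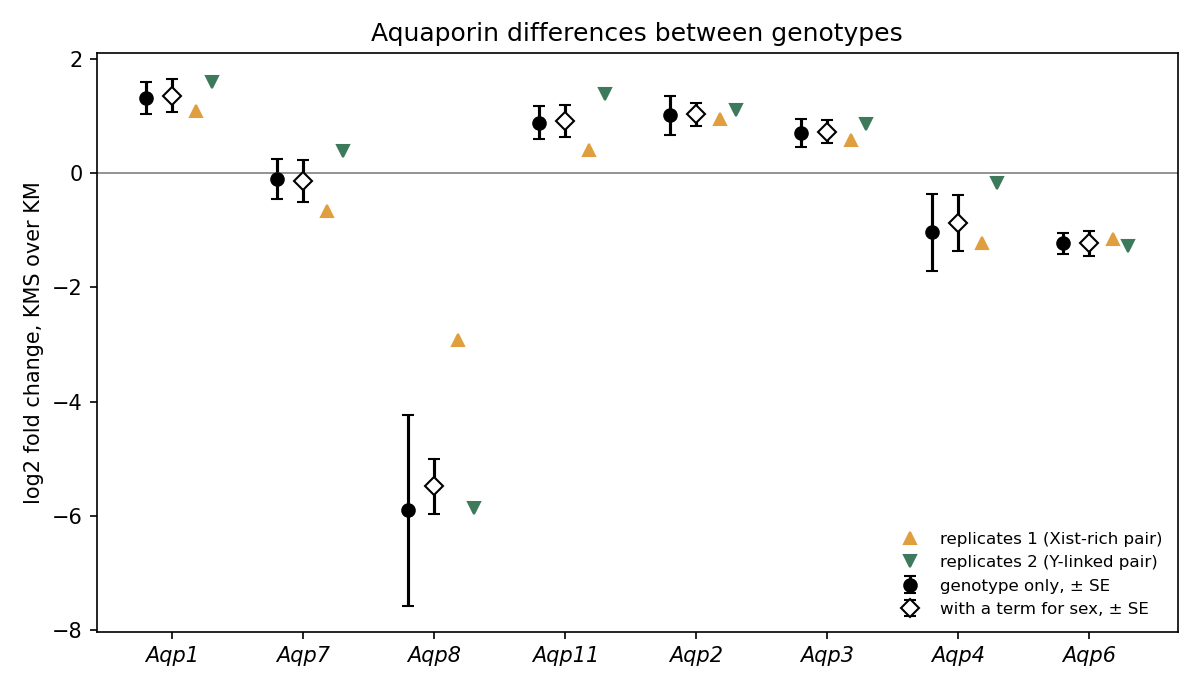
Log2 fold change of KMS over KM for the 8 tested aquaporins (vertical axis), as edgeR estimates ± SE with genotype only (filled circles) and with a term for sex (open diamonds), and as ratios within the pair of replicates 1 and within the pair of replicates 2, on log2(CPM + 0.5). Aqp6 lies near -1.23 by every measure shown, whereas Aqp8 runs from -5.90 to -2.93 and the pairs of Aqp7 lie on opposite sides of 0.

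Aqp5, known from salivary, lacrimal and airway glands and reported in type B intercalated cells of rodents, was nearly confined to KM replicate 2. It had 13 and 603 counts in KM against 1 and 0 counts in KMS, or 0.702 and 36.9 CPM in KM against 0.103 and 0 in KMS. KM replicate 2 was 52.6 times KM replicate 1. Aqp5 did not reach the minimum count in enough libraries and was not tested. The ratio of summed KM to summed KMS counts, scaled by library size, was 316 (95% interval 56.6 to 12515, exact, counting error only), and 12.6 (1.89 to 534) without KM replicate 2.

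Markers of urothelium and basal epithelium were high in the same library as Aqp5. Of 8 listed genes 7 had a row, with a summed CPM of 13.3 and 105 in KM against 1.24 and 2.19 in KMS. All 5 that were tested were lower in both KMS libraries, as were 31.3% of all tested genes. Of these 5, 4 passed with the term for sex (edgeR; 0 with genotype alone, 5 at an unadjusted p under 0.05, 5 with DESeq2, 0 with limma-voom). With that term 3.5% of all tested genes passed as lower. Upk1b, Upk3a, Krt5 and Krt15 had under 10 counts in each KMS library and entered the test only through their KM counts. Their direction was thus largely set by the filter. The shares of all tested genes are not a like comparison for them, and these calls lend no separate weight. Krt15 had 4.70 and 30.3 CPM in KM and Krt5 3.24 and 24.4 CPM in KM, both basal keratin genes, and both had no count in either KMS library. The injury genes given with Aqp8 were high in that library as well. The part of these cells in the values of Aqp5 was not tested.

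Outside the 9 genes, Aqp9, an aquaglyceroporin known from liver, had 6 and 8 counts in KM against 2 and 1 counts in KMS. The ratio of KM to KMS was 2.40 (95% interval 0.669 to 13.0, exact, counting error only), so no difference was detectable at this depth. The lens gene Mip and the pancreas gene Aqp12 were also looked for and had no row in the table.

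Levels of different aquaporins were compared as CPM per kilobase of merged exons. Aqp1 had 95.3 and 63.3 CPM per kilobase in KM against 204 and 191 in KMS, and was the highest aquaporin in every library except KM replicate 2. Aqp2 followed with 41.0 and 23.2 in KM against 79.1 and 50.0 in KMS, and Aqp3 with 28.4 and 19.1 in KM against 42.6 and 34.7 in KMS. In every single library Aqp1 exceeded Aqp2 and Aqp2 exceeded Aqp3 per kilobase, although their ranges over the 4 libraries overlapped. Aqp8 ranged from 0.393 to 143 CPM per kilobase and was the highest in KM replicate 2. Aqp6 had 6.32 to 15.5 and lay apart from Aqp3 in range. The low levels were those of Aqp5 (0 to 14.2), Aqp7 (2.49 to 4.42), Aqp11 (1.63 to 4.35) and Aqp4 (0.253 to 1.08). Aqp7 and Aqp11 overlapped, and Aqp4 lay below the range of Aqp11. The range of Aqp5 overlapped all of these, and Aqp5 was the lowest aquaporin in every library except KM replicate 2.

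As a share of the summed CPM per kilobase of all 9 genes, Aqp1 made up 49.3% and 22.3% in KM and 60.1% and 65.2% in KMS. Aqp8 made up 2.63% and 50.3% in KM and 0.116% and 0.733% in KMS. Aqp6 made up 7.97% and 5.48% in KM and 2.01% and 2.15% in KMS, and it was below its KM share in both KMS libraries. Aqp2 made up 21.2% and 8.19% in KM and 23.3% and 17.0% in KMS. Its shares overlapped between the genotypes, while its CPM did not. These shares are bound to each other, since a high share of Aqp8 in KM replicate 2 lowers all others.

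**Figure D3:**
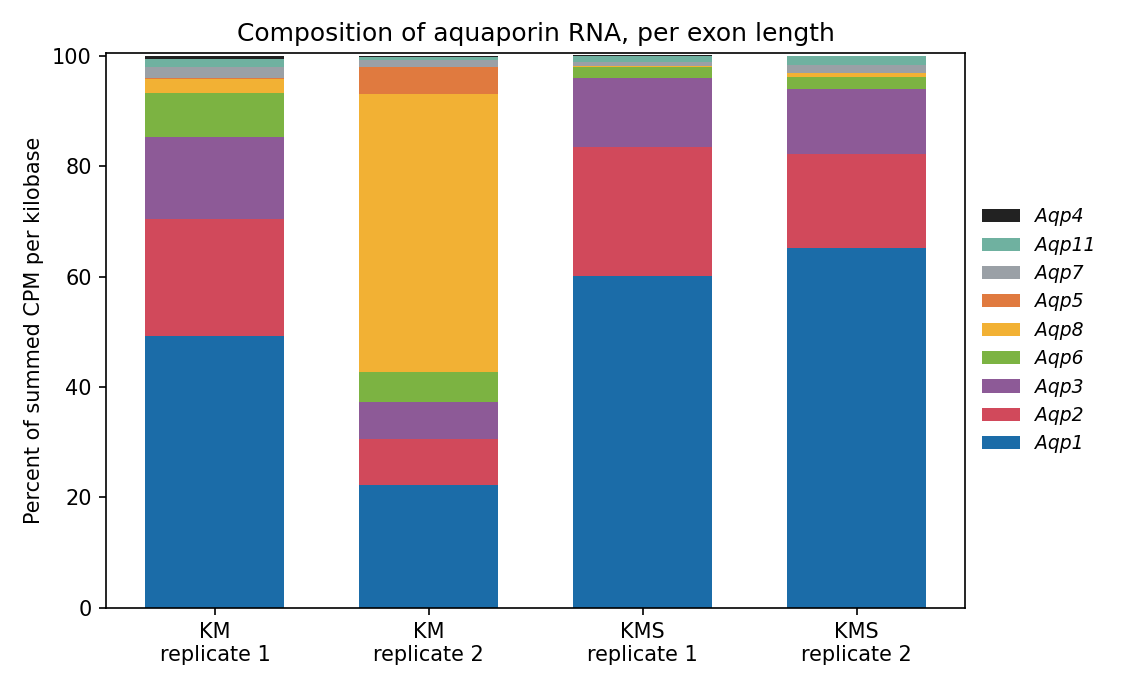
Stacked bars of each aquaporin's percent of the summed CPM per kilobase of merged exons, with 1 bar per library. Aqp1 is the largest part in 3 libraries with 49.3% to 65.2%, while Aqp8 takes 50.3% in KM replicate 2.

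**Figure D4:**
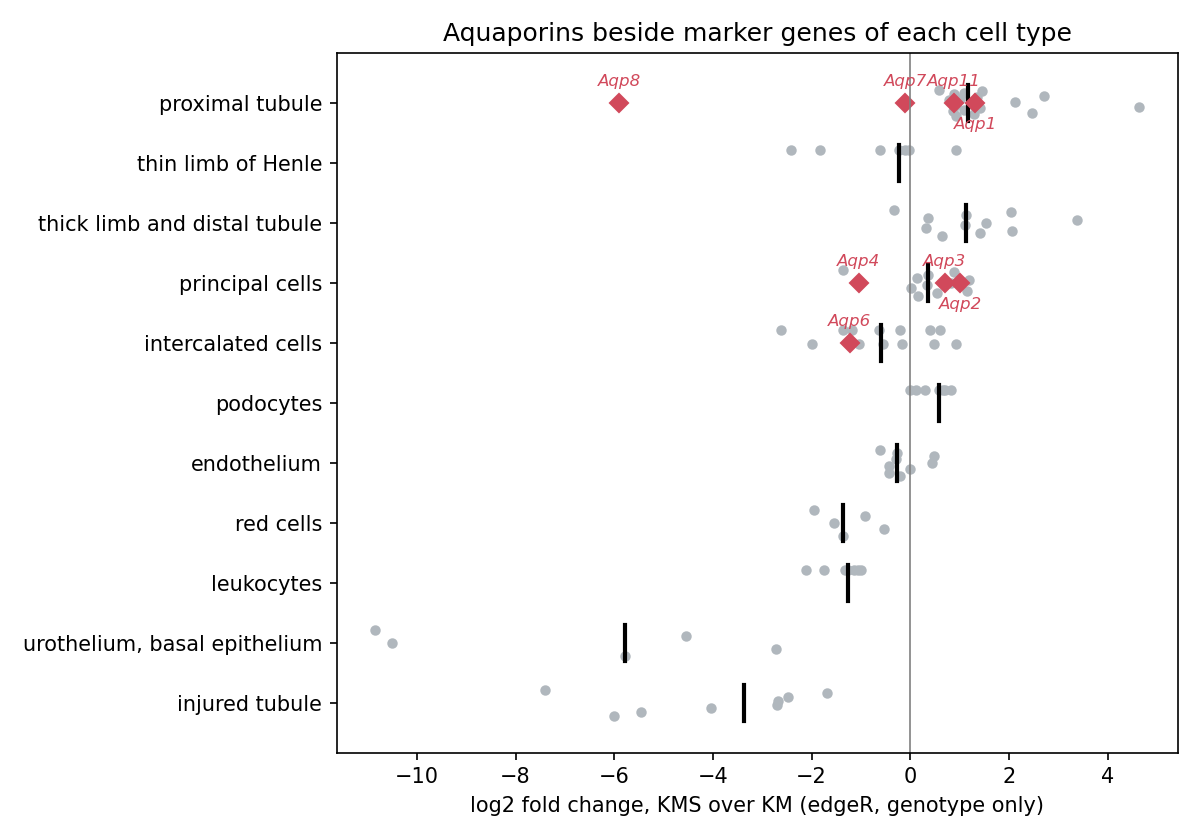
Log2 fold change of KMS over KM (horizontal axis, edgeR with genotype only) of the tested marker genes of each cell type (grey points, 1 per gene, with their median as a black bar) and of the tested aquaporins of that cell type (red diamonds). Aqp1 and Aqp11 lie near the proximal tubule median of 1.17 and Aqp8 far below it, Aqp6 lies below the intercalated cell median of -0.60, and the 2 lowest urothelial points are genes with no count in KMS, whose fitted values depend on the added prior count.

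Libraries differed in ways that bear on these values. The labelled tubular epithelium had its markers in all libraries, with the proximal tubule list the highest in summed CPM, and podocyte, endothelial, red cell and leukocyte markers were present too. Total counts were 18639040 and 14955148 in KM against 9780050 and 8886496 in KMS. Setd2, whose alleles are floxed in KMS, had 54.3 and 58.1 CPM in KM against 58.3 and 49.2 in KMS, and Myc had 5.29 and 6.98 CPM in KM against 6.10 and 2.19 in KMS. Counts over the whole Setd2 gene may include reads outside a deleted part, and what Cre does to the floxed MYC alleles is not described here. The counts of these genes therefore do not check the genotype labels.

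Other cell type markers were compared in the same way. Of 11 markers of the thick ascending limb and distal tubule, 10 were positive with a median of 1.13, and their summed CPM was 3671 and 1026 in KM against 6494 and 4036 in KMS. With genotype alone 0 passed (edgeR; 3 at an unadjusted p under 0.05, 1 with DESeq2, 0 with limma-voom), and 4 passed as higher with sex as a term. Egf, a growth factor gene of this segment, had 534 and 83.9 CPM in KM against 1816 and 747 in KMS, and Umod, the uromodulin gene, 1809 and 540.0 CPM in KM against 2284 and 1399 in KMS. KM replicate 2 was the lowest library of this sum, as it was for Aqp1, Aqp2, Aqp3 and Aqp11. Podocyte markers summed to 2081 and 1036 CPM in KM against 2429.7 and 2267 in KMS, and all 7 were positive. Leukocyte markers summed to 289 and 505 CPM in KM against 223 and 131 in KMS, and all 7 tested were negative (edgeR; 5 at an unadjusted p under 0.05, 3 with DESeq2, 0 with limma-voom). The macrophage gene Cd68 was the leukocyte gene that passed with sex as a term, with 21.4 and 27.9 CPM in KM against 7.96 and 3.28 in KMS. With genotype alone 0 podocyte, endothelial, red cell and leukocyte markers passed in edgeR, and outside the leukocytes none had an unadjusted p under 0.05, a call in DESeq2 or a call in limma-voom. The part of such differences in cell content in the aquaporin values was not tested.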

How the data were processed

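Raw read counts per gene were deposited for each library, per the file headers, and no gene sums below 10. The authors also deposited a log2 fold change and a p-value with its adjusted form per gene, whose test was not stated. Per the submitters' processing notes the tools were HISAT2, StringTie, FastQC, MACS2 2.1.1, Trimmomatic 0.35 and cutadapt 1.9.1, on GRCm38 (mm10). The counting program and its use of strand were likewise not stated. No aquaporin exon overlapped an exon of another gene in GENCODE M21, the source of positions and exon lengths.

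Counts were tested with edgeR 4.0.16 (R 4.3.3; TMM, quasi-likelihood F test, genotype as the only term) after filterByExpr (minimum count 10, minimum total 15), which kept 15002 genes. SE values derive from the F statistic. CPM uses TMM-adjusted totals, and ratios within pairs add 0.5 CPM. DESeq2 1.42.0, limma-voom (limma 3.58.1), other scalings, no filter, a replicate block (the term for sex) and leaving out each library were alternatives. The fit was tested on simulated data. Replicates differed beyond sampling noise (chi-square per degree of freedom 61.9 in KM and 40.5 in KMS). The labels do not say how many animals gave each library, but Xist and Y-linked counts differed between the replicates of each genotype, so the spread behind the p-values includes animals of different sex. With 2 libraries a group, precision is low at any depth.

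The members and lists were chosen with earlier results of these data known. All 9 members were named, with the 3 genes of smallest p from each pathway list, the 2 of highest mean CPM from marker lists tied to a member, and the 3 most alike by root mean square difference of centred log2(CPM + 0.5) over 4 libraries, among listed genes of at least 1 CPM. Other named genes, and the sum without Kap, were chosen after their values were seen. A few genes that these rules name are not reported here.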

Additional observations from a re-analysis of the deposited data

Results flagged for a closer look

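Aqp7 moved in opposite directions in the pairs of equal sex. Its log2 ratio of KMS over KM was -0.66 in the Xist-rich pair and 0.39 in the Y-linked pair. With 1 pair of each sex this difference was not tested. It was not particular to Aqp7, since Kap, Slc7a13 and Slc22a30 of the proximal tubule list had ratios of the same signs in these pairs.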

How the results depend on the processing

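The replicate block, which here equals the term for sex, gave 815 called genes against 5 with genotype alone, 4 called aquaporins against 0 and 28 called listed genes against 0. Whether equal numbers pair the libraries is not given in the labels, and the deviations of the replicates 1 of both genotypes correlated at 0.0657 over genes. DESeq2 gave 1767, 4 and 43 in the same order. Library totals without TMM factors gave 3 genes and limma-voom 1, with 0 aquaporins and 0 listed genes each. Leaving out each library gave 0 to 1491 genes, 0 to 5 aquaporins and 0 to 51 listed genes, the highest counts coming without KM replicate 1. The cause was not tested. Among 80 values of 8 aquaporins under 10 alternatives, 64 kept direction and call, 13 passed where the fit with genotype alone did not, and 3 changed sign. These were Aqp4 without KM replicate 1 (0.19) and Aqp7 without KM replicate 1 (0.05) or KMS replicate 1 (0.28). Leaving out each library moved Aqp4 from -1.67 to 0.19 and Aqp7 from -0.57 to 0.28. Library totals lowered the median of all genes by 0.12 on the log2 scale, with no change of sign among the aquaporins. The order of mean levels per kilobase was the same with library totals, and with the longest transcript as length Aqp11 and Aqp7 exchanged places, so that 7 of 9 genes kept theirs. Depth limits Aqp4, Aqp5, Aqp8 and Aqp9, each with under 40 counts over both KMS libraries.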
